A study of Mus musculus with 9 samples.

Results

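Stromal, matrix and mesothelial genes are typical of fibroblasts, mural cells and mesothelial cells, which can be present in a preparation of peritoneal macrophages. The cells that made the RNA of these genes were not identified here. The 32 genes described here, of 54059 genes in the deposited table, were taken from a list of gene symbols and cover collagens, other matrix proteins, enzymes that fold or cross-link collagen, fibroblast and mural surface proteins, contractile proteins, mesothelial markers and keratins. Their levels were read in all 9 RNA sequencing libraries as FPKM, a count of fragments scaled by transcript length and by library size. The libraries form 3 groups of 3: peritoneal macrophages of wild-type mice, of M-Shp2-/- mice (SHP2lyz2-/- in the labels), and of wild-type C57BL/6 mice pretreated with 10 µM SHP099, an allosteric inhibitor of the phosphatase SHP2, for 2 h. Mice were 8 weeks old by the labels. By the study's methods, all cells were elicited by an intraperitoneal injection of 1 ml starch broth 3 days earlier, kept for adherence to plastic and then stimulated with imiquimod (IMQ), a TLR7 agonist, for 4 h. A concentration of 10 µg/ml is stated for the wild-type and SHP099 groups.

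Several features of the model bear on these genes. In M-Shp2-/- mice the floxed Shp2 gene is deleted by Cre recombinase under the Lyz2 promoter, which is active in monocytes, macrophages and granulocytes, so that fibroblasts and mesothelial cells of these mice keep the gene, whereas SHP099 reaches every cell in the dish. No sorting step is described, and adherence also retains fibroblasts and mesothelial cells. Nothing in the sources used here says whether a library came from 1 mouse or several. The tests below therefore take the library as the unit and weigh differences against the spread between libraries, which may not be the spread between mice.

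Fibroblasts build the interstitial matrix. They secrete fibrillar collagens (types I, III and V), whose chains are folded in the endoplasmic reticulum with the chaperone encoded by Serpinh1, trimmed outside the cell and cross-linked by lysyl oxidases, and they add microfibrils and small proteoglycans. Mesothelial cells form the single sheet that lines the peritoneal cavity and covers its organs. They rest on a basement membrane of type IV collagen, express keratins 8, 18 and 19 together with mesothelin (Msln), Upk3b and the transcription factor Wt1, and can shed into lavage fluid.

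The libraries held 39842960 reads in SHP099 replicate 2 to 50981029 reads in wild-type replicate 2, as recovered from the FPKM values. Ptpn11, which encodes SHP2, was read first as a check of the labels. It stood at 45.8, 44.0 and 40.0 FPKM in wild-type replicates 1 to 3, at 18.6, 17.8 and 18.9 in M-Shp2-/- replicates 1 to 3, and at 43.0, 42.1 and 39.6 in SHP099 replicates 1 to 3. All 3 M-Shp2-/- libraries lay below every other library, with a log2 fold change against wild type of −1.19 ± 0.10 (SE, n = 3 per group, limma adjusted p = 0.0168 over 11450 genes). Macrophage genes were abundant in every library. The summed FPKM of 13 macrophage markers, of which 12 could be tested and the lysozyme gene Lyz2 was the most abundant, was 11761 to 12270.2 in the M-Shp2-/- libraries and 14872 to 17887 in the others. The M-Shp2-/- libraries thus lay below all others in this sum, as they did for Lyz2 itself, the gene whose promoter drives Cre, at 4743 to 5407 FPKM against 7440.3 to 10715. Without Lyz2, a sum taken after the values were seen, the M-Shp2-/- libraries, at 6354 to 7528 FPKM, overlapped both other groups, while the SHP099 libraries, at 5881 to 7169, lay below the wild-type libraries, at 7431 to 8933. Of 6 epithelial genes Krt5 was at 0 in every library, 0 reached a mean of 1 FPKM, the minimum for testing, and the sum was 0.182 to 1.40 FPKM. Of 10 endothelial genes Emcn was at 0 in every library, 2 could be tested, and the sum was 29.2 to 56.9 FPKM, most of it from Vwf. The sums were 42.1 to 103 FPKM for 7 neutrophil genes and 11.5 to 178 FPKM for 6 B cell genes, both highest in M-Shp2-/- replicate 3.

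Some libraries stood apart from their own group over all 11450 genes tested. M-Shp2-/- replicates 1 and 2 correlated with each other at r = 0.992 (log2 values, across genes), but M-Shp2-/- replicate 3 correlated with them at 0.967 and 0.954 and was closest to SHP099 replicate 1, at 0.984. Wild-type replicate 3 was closest to SHP099 replicate 3 (r = 0.978), and wild-type replicate 1 to M-Shp2-/- replicate 2 (r = 0.988). The 3 SHP099 libraries correlated with one another at 0.988 to 0.991. For M-Shp2-/- against wild type and against SHP099, the median difference of the members and the number above or below 0 are therefore given below with and without M-Shp2-/- replicate 3. Most values of single genes and of other lists are given with all libraries.

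The members differed far more between libraries than between groups. Their summed FPKM was 227, 808 and 185 in wild-type replicates 1 to 3. It was 386, 223 and 1156 in M-Shp2-/- replicates 1 to 3. It was 759, 340 and 255 in SHP099 replicates 1 to 3. Each group thus had 1 library with a high sum, namely wild-type replicate 2, M-Shp2-/- replicate 3 and SHP099 replicate 1, and the ranges of the 3 groups overlapped. The highest sum was 6.26 times the lowest. In bulk RNA, more cells of a type and more RNA per cell of that type cannot be told apart, and these sums are levels of RNA, not counts of cells.

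As a share of all reads the members took 0.0389% in M-Shp2-/- replicate 2 (95% exact Clopper-Pearson interval 0.0383% to 0.0395%) and 0.232% in M-Shp2-/- replicate 3 (0.231% to 0.233%). These intervals cover counting error only, and they are narrow beside the distance between the libraries. Depth did not limit the abundant members, since Col1a1 was read 759 to 16704 times per library. It did limit the least abundant: Lum had 81 reads over all 9 libraries, Postn 123 and Igfbp5, which encodes a binding protein of insulin-like growth factors, 221. Of the 32 members 23 averaged 1 FPKM or more and entered the tests. The other 9, Lum, Postn, Igfbp5, Tagln, Msln, Upk3b, Krt8, Krt18 and Krt19, are given by their levels only.

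**Figure D1:**
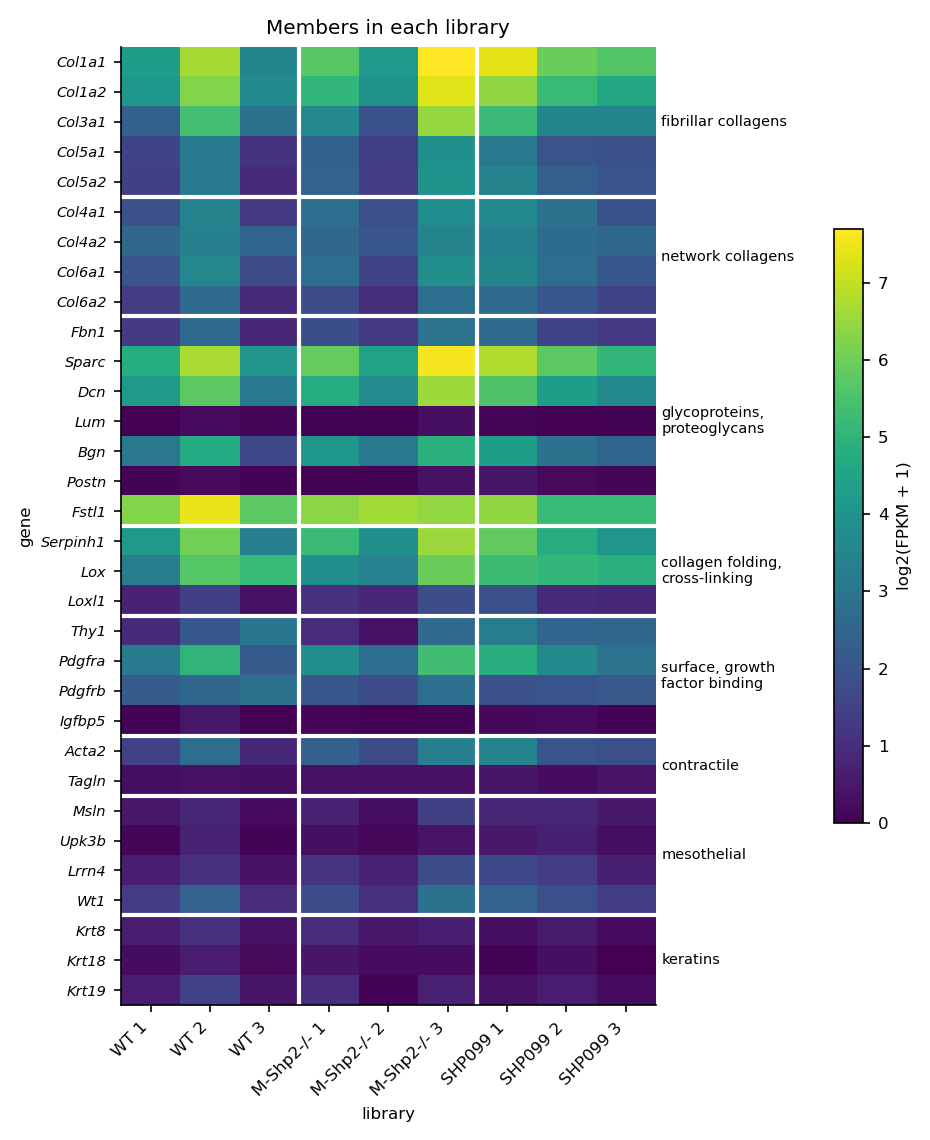
Level of each of the 32 genes, as log2(FPKM + 1), in each of the 9 libraries, with genes grouped by role and white lines between the groups. Wild-type replicate 2, M-Shp2-/- replicate 3 and SHP099 replicate 1 form the bright columns, and Lum, Postn, Igfbp5 and Tagln are dark throughout.

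The fibrillar collagens had the widest spread of the roles, with sums of 30.1 FPKM in wild-type replicate 3 and 479 in M-Shp2-/- replicate 3, a ratio of 15.9. Col1a1 (ENSMUSG00000001506, chromosome 11, plus strand, 94936224 to 94953042 on GRCm38) encodes the α1 chain of type I collagen and stood at 18.9, 101 and 10.0 FPKM in wild-type replicates 1 to 3. It stood at 50.4, 16.4 and 206 in M-Shp2-/- replicates 1 to 3. It stood at 166, 60.7 and 48.0 in SHP099 replicates 1 to 3. The libraries of each group spread across those of the others, and within the M-Shp2-/- group alone the highest value was 12.5 times the lowest. Its partner chain gene Col1a2 read 15.4, 75.8 and 11.7 in wild type, 33.3, 14.0 and 158 in M-Shp2-/- and 84.4, 35.6 and 24.2 in SHP099, in the same order of replicates. Col3a1, the type III chain of extensible tissues, had the widest range of the fibrillar collagens, from 2.86 FPKM in M-Shp2-/- replicate 2 to 87.9 in M-Shp2-/- replicate 3. Col5a1 and Col5a2, whose type V chains nucleate and thin the fibrils, were lower, at 1.19 to 13.4 and 0.940 to 14.0 FPKM, with the same 3 libraries on top.

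The network collagens were less abundant and less spread. Col4a1 and Col4a2 encode the chains of the main basement membrane trimer, and Col6a1 and Col6a2 chains of the beaded filaments around cells. Col4a1 ranged from 1.42 FPKM in wild-type replicate 3 to 12.4 in M-Shp2-/- replicate 3. Col4a2 ranged only from 3.13 to 9.75, a ratio of 3.12 between the extremes. Where the other collagens were low Col4a2 was the more abundant partner, so that the ratio of Col4a1 to Col4a2 ran from 0.310 in wild-type replicate 3 to 1.27 in M-Shp2-/- replicate 3. Col6a1 and Col6a2 kept a narrower ratio, 1.70 to 2.66, and correlated at r = 0.988 across the 9 libraries (log2 values). These correlations across libraries are descriptions, and the points share the libraries and their composition.

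Several of these genes are neighbours on the mouse genome (GENCODE M21, GRCm38). Col4a1 and Col4a2 lie head to head on chromosome 8, with exons that share 22 bases on opposite strands. Col3a1 and Col5a2 lie 24.6 kb apart on chromosome 1, and Krt8 and Krt18 23.7 kb apart on chromosome 15, with no gene of the table lying between them, while Col6a1 and Col6a2 lie 85.2 kb apart on chromosome 10 with 1 gene between them. Across the 9 libraries the pairs correlated at 0.868 (Col4a1 and Col4a2), 0.950 (Col3a1 and Col5a2), 0.944 (Krt8 and Krt18) and 0.988 (Col6a1 and Col6a2). Neighbours were therefore not always the more alike, since the unlinked pair Col1a1 on chromosome 11 and Col1a2 on chromosome 6 correlated at 0.973, above 3 of these 4 pairs.

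Promoter windows, 250 bases before to 50 bases after the start, were found in RefSeq (GRCm38.p6) for 20 of the 32 members, in 22 windows. They are shown for collagens that moved together, for the Col4a1 and Col4a2 pair that shares its start region, and for Fstl1, which kept another pattern (below). Capitals mark CCAAT, the GC box GGGCGG and TATAAA, each searched on both strands. The windows are Col1a2 on the plus strand at chr6:4505368-4505667, Col3a1 on the plus strand at chr1:45311288-45311587, Col4a1 on the minus strand at chr8:11312777-11313076, Col4a2 on the plus strand at chr8:11312555-11312854 and Fstl1 on the plus strand at chr16:37776805-37777104, each written 5′ to 3′ on the strand of its gene.
Col1a2: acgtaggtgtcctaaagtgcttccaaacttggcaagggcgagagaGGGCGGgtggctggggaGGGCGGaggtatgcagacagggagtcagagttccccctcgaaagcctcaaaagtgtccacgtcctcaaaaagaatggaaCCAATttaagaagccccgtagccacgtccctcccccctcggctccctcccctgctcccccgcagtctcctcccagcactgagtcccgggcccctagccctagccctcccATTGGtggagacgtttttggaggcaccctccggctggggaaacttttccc
Col3a1: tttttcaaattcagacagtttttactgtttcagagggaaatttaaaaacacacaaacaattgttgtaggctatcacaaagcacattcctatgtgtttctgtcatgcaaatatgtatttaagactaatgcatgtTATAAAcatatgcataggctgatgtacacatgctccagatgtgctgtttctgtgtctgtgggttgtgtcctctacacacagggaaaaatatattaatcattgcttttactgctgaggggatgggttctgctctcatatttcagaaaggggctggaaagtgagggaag
Col4a1: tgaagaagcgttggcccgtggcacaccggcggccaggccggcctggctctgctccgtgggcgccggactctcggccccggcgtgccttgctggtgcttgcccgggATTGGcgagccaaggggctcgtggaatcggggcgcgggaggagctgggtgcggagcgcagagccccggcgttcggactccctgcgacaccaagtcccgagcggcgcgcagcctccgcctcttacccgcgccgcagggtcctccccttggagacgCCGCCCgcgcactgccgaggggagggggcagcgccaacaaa
Col4a2: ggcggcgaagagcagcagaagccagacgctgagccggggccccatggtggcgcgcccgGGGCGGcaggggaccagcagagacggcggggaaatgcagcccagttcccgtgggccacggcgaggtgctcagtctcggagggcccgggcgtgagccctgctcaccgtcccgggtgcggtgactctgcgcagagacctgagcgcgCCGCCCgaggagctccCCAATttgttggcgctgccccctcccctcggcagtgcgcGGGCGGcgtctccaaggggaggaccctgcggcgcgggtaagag
Fstl1: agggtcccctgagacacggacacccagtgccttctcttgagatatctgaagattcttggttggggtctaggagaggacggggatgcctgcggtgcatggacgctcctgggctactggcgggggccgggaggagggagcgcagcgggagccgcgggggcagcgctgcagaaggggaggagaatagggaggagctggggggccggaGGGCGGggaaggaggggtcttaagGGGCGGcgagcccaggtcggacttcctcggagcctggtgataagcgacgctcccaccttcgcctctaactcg
The Col4a1 and Col4a2 windows share 78 bases, and their starts lie 21 bases apart. CCAAT was present in 4 of the 22 member windows and in 37.4% of all 32851 promoter windows, the GC box in 10 of 22 and in 35.7%, and TATAAA in 3 of 22 and in 13.6%. Col3a1 had TATAAA and neither of the other motifs, Fstl1 had only the GC box, and the other 3 windows shown had both CCAAT and the GC box. A match is a description of the letters in the window and says nothing about the binding of a factor.

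Among glycoproteins and proteoglycans, Sparc, a collagen-binding matricellular protein, was at 26.4, 104 and 15.2 FPKM in wild-type replicates 1 to 3, at 57.5, 20.8 and 193 in M-Shp2-/- replicates 1 to 3, and at 108, 53.4 and 32.9 in SHP099 replicates 1 to 3. The order of the libraries was close to that of the collagens, and the groups overlapped. Dcn, the decorin that binds collagen fibrils, ranged from 8.09 to 94.6 FPKM, the related proteoglycan gene Bgn from 2.16 to 29.4, and the fibrillin gene Fbn1 from 0.769 to 6.62. Annotated exons of the gene Gm9913 on the opposite strand cover 20.1% of the exon bases of Fbn1, and the strand counted is not given in the sources used here, so reads of that pair cannot be told apart. Lum, another small proteoglycan typical of fibroblasts of skin and cornea, did not exceed 0.251 FPKM, and Postn did not exceed 0.391.

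Fstl1, a secreted glycoprotein of the follistatin family, was the most abundant member on average and did not keep this pattern. It read 76.2, 177 and 52.8 FPKM in wild-type replicates 1 to 3. It read 81.6, 98.0 and 85.3 in M-Shp2-/- replicates 1 to 3. It read 84.4, 35.4 and 35.8 in SHP099 replicates 1 to 3. Its highest library was wild-type replicate 2, it was nearly even over the M-Shp2-/- libraries, in which Col1a1 ranged over 12.5-fold, and 2 SHP099 libraries lay below all the others. Its correlation with the mean standardised level of the other tested members was 0.41 over the 9 libraries.

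The genes of collagen folding and cross-linking divided in the same way. Serpinh1 followed the collagens, from 8.91 FPKM in wild-type replicate 3 to 92.3 in M-Shp2-/- replicate 3, as did the less abundant Loxl1, from 0.292 to 2.65. Lox, the lysyl oxidase that acts on collagen and elastin, did not. It stood at 8.57, 49.9 and 36.5 FPKM in wild-type replicates 1 to 3, at 13.2, 9.74 and 60.2 in M-Shp2-/- replicates 1 to 3, and at 37.8, 32.8 and 29.2 in SHP099 replicates 1 to 3. Wild-type replicate 3, the lowest library for Col1a1, was thus above SHP099 replicates 2 and 3 for Lox, and the groups overlapped. Its correlation with the mean standardised level of the other tested members was 0.65.

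Of the surface proteins, Pdgfra, the receptor for platelet-derived growth factor that marks fibroblasts, followed the collagens, at 7.81, 31.6 and 3.70 FPKM in wild type, 12.9, 5.81 and 39.2 in M-Shp2-/- and 27.9, 11.8 and 6.60 in SHP099. Pdgfrb, the receptor typical of pericytes and other mural cells, was flatter, at 3.69, 4.99 and 6.41 in wild type, 3.25, 2.56 and 5.96 in M-Shp2-/- and 2.74, 2.96 and 3.42 in SHP099. Every SHP099 library lay below every wild-type library for Pdgfrb. Thy1, a glycoprotein shared by fibroblasts and T cells, read 0.898, 3.34 and 7.04 in wild type, 0.951, 0.293 and 5.22 in M-Shp2-/- and 8.34, 4.70 and 4.96 in SHP099. It was high in wild-type replicate 3, where the collagens were lowest.

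A list of 9 T and NK cell genes, of which Cd3g was the most abundant, moved with Thy1. None of the 9 reached the minimum for testing. Their summed FPKM was 1.00, 3.12 and 9.47 in wild-type replicates 1 to 3, 1.16, 0.628 and 4.31 in M-Shp2-/- replicates 1 to 3, and 5.76, 4.98 and 4.84 in SHP099 replicates 1 to 3. As for Thy1, the sum was lowest in M-Shp2-/- replicates 1 and 2 and wild-type replicate 1. The part of T cells in the level of Thy1 was not tested.

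The contractile genes were uneven. Acta2, the smooth muscle actin that marks activated fibroblasts and mural cells, ranged from 0.832 FPKM in wild-type replicate 3 to 10.0 in SHP099 replicate 1 and followed the collagens. Tagln, another smooth muscle protein that usually accompanies it, stayed between 0.182 and 0.377 FPKM, or 7 to 16 reads per library. Antisense exons of Gm48529 cover 62.4% of its exon bases, which makes even this low level uncertain.

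Mesothelial genes were low but readable, and among them only Wt1 kept the 3 high libraries of the collagens. Wt1, a transcription factor of mesothelium, was at 1.51, 4.39 and 0.953 FPKM in wild type, at 2.39, 1.05 and 6.25 in M-Shp2-/- and at 4.34, 2.70 and 1.61 in SHP099. Its correlation with the mean of the other tested members, 0.99, was among the highest of all members. Lrrn4, a mesothelial membrane protein, ranged from 0.297 to 2.38 FPKM, Msln from 0.167 to 1.75 and Upk3b from 0.0533 to 0.656, each lowest in wild-type replicate 3. Their order at the top differed from that of the collagens, since SHP099 replicate 2 was above wild-type replicate 2 for Lrrn4 and Msln and above M-Shp2-/- replicate 3 for Upk3b. The keratins differed from them. Krt8, Krt18 and Krt19 summed to 3.37 FPKM in wild-type replicate 2 and 2.31 in M-Shp2-/- replicate 1, but to 1.40 in M-Shp2-/- replicate 3 and 0.582 in SHP099 replicate 1, both among the 3 libraries with the most collagen. These keratins rest on few reads, with 1 to 40 per library for Krt18.

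**Figure D2:**
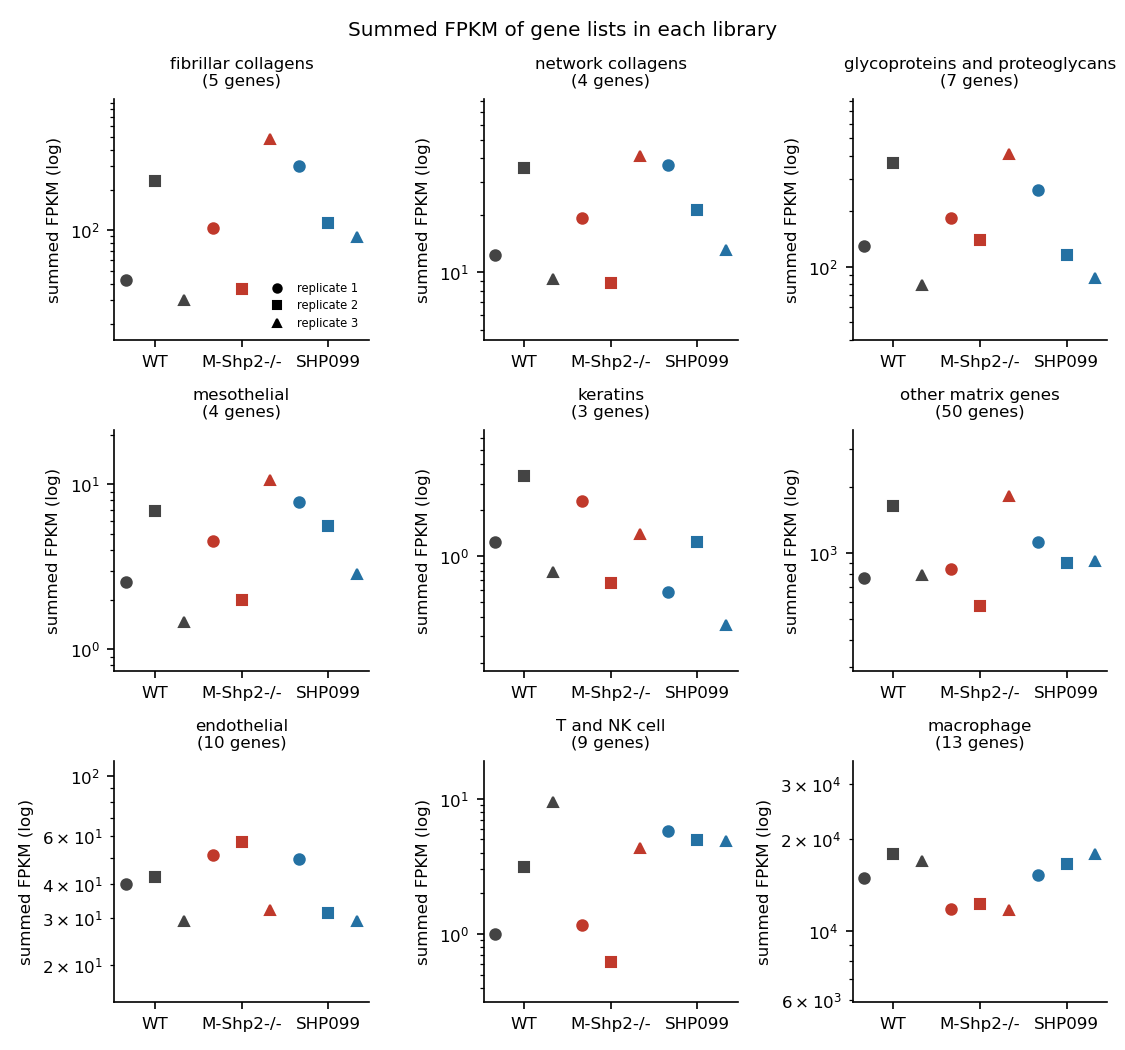
Summed FPKM of gene lists (log axes, a scale of its own in each panel) in each library, colored by group, with the replicate number as the symbol. The sums of the collagens and of the mesothelial genes share their 3 high libraries, while the T and NK cell list is highest in wild-type replicate 3 and the macrophage list lies between 11761 and 17887.

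Across all tested genes, the spread between libraries of 1 group set the members apart in size. The SD of log2(FPKM + 1) within groups had a median of 0.97 over the 23 members tested and of 0.19 over all 11450 genes tested. It was above the 95th percentile of all genes for 19 of the 23, and largest for Col3a1, at 1.71. Pdgfrb had the smallest, 0.35, followed by Lrrn4 at 0.47. Of the 23 members, 17 correlated at 0.9 or more with the mean of the other members over the 9 libraries, whereas 2.26% of all tested genes correlated at 0.9 or more with the mean of the members. The 6 below that were Lrrn4 (0.86), Bgn (0.88), Lox (0.65), Fstl1 (0.41), Thy1 (0.39) and Pdgfrb (0.17).

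**Figure D3:**
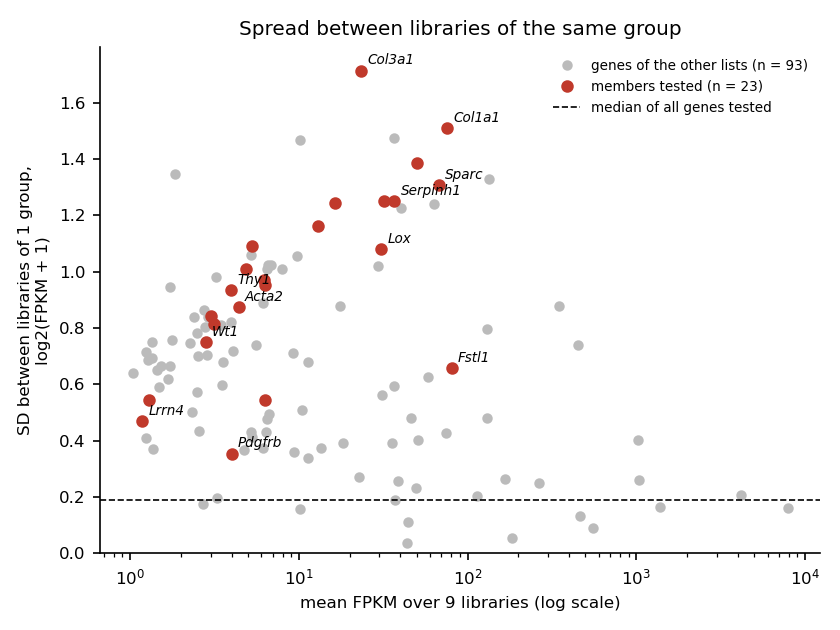
SD between libraries of the same group, on the log2(FPKM + 1) scale and pooled over the 3 groups, against mean FPKM (log axis) for the 23 members tested in red and the tested genes of the other lists in grey. The dashed line is the median of all 11450 genes, 0.19, and every member lies above it, with Pdgfrb lowest at 0.35.

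The 10 genes outside the members whose log2 values followed the members most closely over the 9 libraries were Rcn3, Gas1, Hspb8, Ccn4, Cyp1b1, Plod2, Bicc1, Gpx7, Nectin2 and Egfr, with r of 0.98 to 0.99. Plod2 is a lysyl hydroxylase that acts on collagen, and Ccn4 is a secreted matricellular protein. Cyp1b1, the most abundant of them, stood at 9.51, 33.2 and 5.31 FPKM in wild-type replicates 1 to 3, at 17.2, 8.42 and 54.6 in M-Shp2-/- replicates 1 to 3, and at 34.6, 15.2 and 9.60 in SHP099 replicates 1 to 3. It therefore had the same 3 high libraries as Col1a1. Of 6 proliferation genes 4 also correlated at 0.9 or more with the mean of the members, beside 2.26% of all tested genes. Among them was the topoisomerase gene Top2a, at 5.13 FPKM in wild-type replicate 3 and 21.4 in M-Shp2-/- replicate 3. Mki67 did not keep this pattern, with r of 0.27 and its highest level, 50.1 FPKM, in wild-type replicate 1, and Pcna stayed between 162 and 206 FPKM. The part of dividing cells in these levels was not tested.

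The first comparison asked how loss of SHP2 in myeloid cells changed these genes under IMQ. In M-Shp2-/- against wild-type cells, 18 of the 23 members tested (78.3%) were higher on average and 5 were lower, beside 77.4% of all genes tested that were higher. The median of their log2 fold changes was 0.50, beside 0.15 over all genes tested, and 0.35 beside −0.01 after median-of-ratios scaling. Col1a1 had the largest difference, at 1.02 ± 1.09 (SE, n = 3 per group), with a 95% interval of −1.59 to 3.63 and a limma adjusted p of 0.655. Sparc was at 0.80 ± 0.94, Acta2 at 0.75 ± 0.56, Lrrn4 at 0.52 ± 0.32 and Wt1 at 0.31 ± 0.55, whereas Thy1 was at −0.69 ± 0.72 and Fstl1 at −0.02 ± 0.41. The 95% interval of each included 0, since the libraries within a group lay as far apart as the groups.

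A gene was called when its adjusted p was 0.005 or less and its log2 fold change 1 or more in either direction. By this rule limma called 0 of the 23 members, beside 0.00873% of all 11450 genes (1 gene). Voom on the recovered reads also called 0 members. At an unadjusted p under 0.05, 0 members were counted, beside 10.5% of all genes, and for 0 members did the groups not overlap, beside 19.1% of all genes. The count at an unadjusted p under 0.05 was 1 without M-Shp2-/- replicate 3, beside 19.9% of all genes, and 3 without wild-type replicate 2, beside 9.9%. Leaving out M-Shp2-/- replicate 3 moved the median of the members from 0.50 to −0.03 and the number above 0 from 18 to 10, while leaving out wild-type replicate 2 moved the median to 1.21, M-Shp2-/- replicate 2 to 1.06, wild-type replicate 1 to 0.34 and wild-type replicate 3 to 0.11. The direction of the members against wild type thus turned on M-Shp2-/- replicate 3.

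The second comparison asked the same of the inhibitor. In SHP099 against wild-type cells 21 of the 23 members (91.3%) were higher on average, beside 71.2% of all genes tested, and 2, Fstl1 and Pdgfrb, were lower, with a median of 0.38 beside 0.13 over all genes, or 0.28 beside −0.01 after median-of-ratios scaling, which left 18 above 0. Col1a1 was at 1.50 ± 0.83 (95% interval −0.45 to 3.45, limma adjusted p = 0.299), Lrrn4 at 0.55 ± 0.31, Sparc at 0.70 ± 0.71 and Dcn at 0.12 ± 0.70. Fstl1 was at −0.90 ± 0.49 (adjusted p = 0.297). Again 0 members were called by limma, beside 0.166% of all genes (19 genes), and 0 by voom. Pdgfrb, at −0.56 ± 0.19 (adjusted p = 0.118), was the 1 member with an unadjusted p under 0.05, beside 26.7% of all genes, and the 1 member whose groups did not overlap, beside 34.6% of all genes. These counts turned on wild-type replicate 2, without which 10 of the 23 members (43.5%) had an unadjusted p under 0.05, beside 24.4% of all genes, and with any other library left out the count was 0 to 3. Without SHP099 replicate 1 the median of the members moved to 0.02, with 12 above 0. Without wild-type replicate 3 it moved to 0.04, and without wild-type replicate 2 to 0.92.

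M-Shp2-/- and SHP099 libraries were also compared with each other. The comparisons above share the wild-type libraries, and this one does not use them. The members were divided, with 12 above 0 (52.2%, beside 53.2% of all genes) and 11 below, and a median of 0.02, beside 0.02 over all genes. Fstl1 was at 0.87 ± 0.33 (limma adjusted p = 0.364) and Thy1 was at −1.45 ± 0.56 (adjusted p = 0.374). They were the 2 members with an unadjusted p under 0.05, beside 12.6% of all genes. Called by limma were 0 members, beside 0% of all genes, 0 by voom, and for 0 members did the groups not overlap, beside 17.7% of all genes.

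This comparison changed when M-Shp2-/- replicate 3 was left out. The number of genes called over the whole table went from 0 to 159, the median of the members from 0.02 to −0.50, and 21 of the 23 members then lay below 0. Without M-Shp2-/- replicate 2 or without SHP099 replicate 1, 21 lay above 0, and without SHP099 replicate 3 only 5 did. Lox, at −0.69 ± 0.61 with all libraries, was at −1.46 without M-Shp2-/- replicate 3. It was then the 1 member of 23 called, beside the 159 of all 11450 genes. Its FPKM in M-Shp2-/- replicates 1 and 2, 13.2 and 9.74, lay below the 3 SHP099 libraries, and that in M-Shp2-/- replicate 3, 60.2, lay above them.

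**Figure D4:**
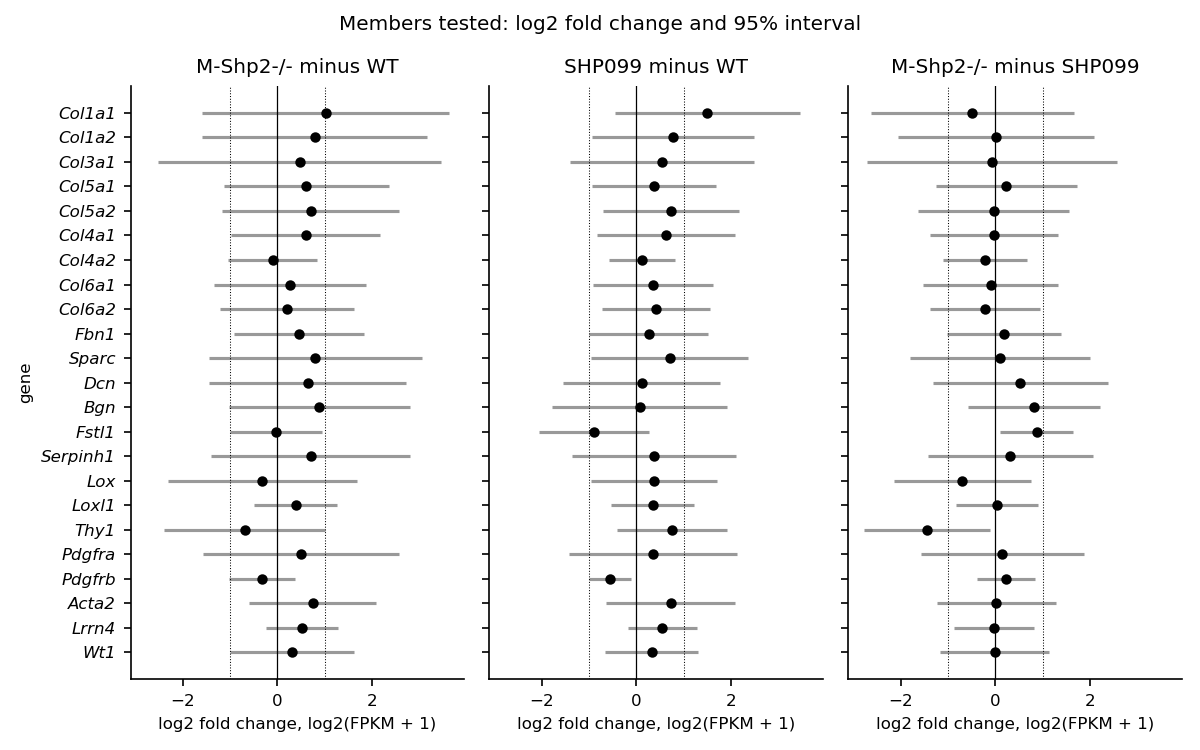
Log2 fold change on the log2(FPKM + 1) scale with its 95% interval for the 23 members tested in the 3 comparisons (n = 3 libraries per group), with dotted lines at −1 and 1. Nearly all intervals include 0, and the exceptions are Pdgfrb in SHP099 minus WT and Fstl1 and Thy1 in M-Shp2-/- minus SHP099.

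Since the level of the members as a whole differed so much between libraries, their proportions to one another were read within each library, for 7 pairs chosen after their values were seen and therefore with no test. The ratio of Col1a1 to Col1a2 was 1.23, 1.33 and 0.860 in wild-type replicates 1 to 3, 1.51, 1.17 and 1.30 in M-Shp2-/- replicates 1 to 3, and 1.97, 1.70 and 1.98 in SHP099 replicates 1 to 3. All SHP099 libraries lay above all the others, although their Col1a1 levels did not. The ratio of Dcn to Col1a1 was 0.751 ± 0.200 (SD, n = 3) in wild type, 0.576 ± 0.148 in M-Shp2-/- and 0.274 ± 0.0301 in SHP099, and here too the SHP099 libraries did not overlap the others. The ratio of Col5a1 to Col5a2 was 1.12 ± 0.144, 1.01 ± 0.0777 and 0.803 ± 0.0986 in the same order of groups, again with no overlap between SHP099 and the others. The remaining pairs, Col3a1 to Col1a1, Fstl1 to Col1a1, Col4a1 to Col4a2 and Col6a1 to Col6a2, overlapped between SHP099 and at least 1 other group. Of single genes, 34.6% of all tested did not overlap between SHP099 and wild type and 17.7% between M-Shp2-/- and SHP099. How often ratios of other gene pairs do not overlap was not counted. The ratios of Col1a1 to Col1a2 and of Dcn to Col1a1 share Col1a1 and are not separate observations.

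**Figure D5:**
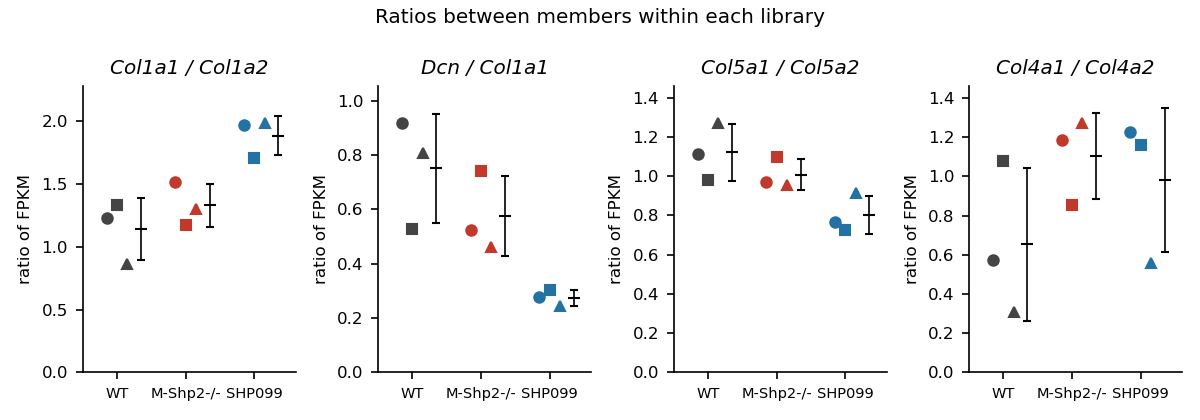
Ratio of the FPKM of 2 members within each library, with the replicate number as the symbol (circle 1, square 2, triangle 3) and the mean ± SD of each group beside the points. In SHP099 libraries Col1a1 is high relative to Col1a2 and to Dcn, while the ratio of Col4a1 to Col4a2 overlaps between groups.

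The same was asked across all genes by adding to the limma fit, after the data had been seen, the matrix level of each library, which is the mean log2(FPKM + 1) of 29 tested matrix genes outside the members. This level ran from 2.54 in wild-type replicate 3 to 4.41 in M-Shp2-/- replicate 3 and correlated with the mean of the members at 0.97 over the 9 libraries. Since the fit was chosen with the values of the members known, its p-values describe these libraries and are no test apart from the ratios above. In SHP099 against wild-type cells 20 of the 23 members were above 0 in this fit and 3 below. Their median was 0.30, beside 0.12 over all genes, and the values of single members include this shift of the set. At an equal matrix level, Col1a1 was at 1.38 ± 0.12 in SHP099 against wild-type cells (limma adjusted p = 0.00476). It was then the 1 member called, beside 0.192% of all genes. With any 1 library left out the difference was 1.26 to 1.56 and its adjusted p 0.00303 to 0.0247, and the call held without wild-type replicate 1 or 3 and was lost without wild-type replicate 2 or any 1 SHP099 replicate. An adjusted p of 0.05 or less was reached by 6 of the 23 members, beside 11.4% of all genes: Col1a1, Sparc (0.60 ± 0.10), Col1a2 (0.66 ± 0.14), Col5a2 (0.65 ± 0.13) and Acta2 (0.64 ± 0.16) were higher, and Fstl1 (−0.97 ± 0.12, adjusted p = 0.00908) was lower. The count of 6 was 8 without wild-type replicate 1, beside 20.1% of all genes in that fit, 6 without wild-type replicate 3, beside 13.4%, and 1 without wild-type replicate 2, beside 1.14%. It was 2 without SHP099 replicate 1, 2 or 3, beside 1.88%, 1.10% and 1.89% of all genes. The directions of these 6 members held with each library left out, but the adjusted p then reached 0.0999 for Sparc, 0.138 for Col1a2, 0.146 for Col5a2, 0.345 for Acta2 and 0.0684 for Fstl1. Dcn was at 0.02 ± 0.10.

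In M-Shp2-/- against SHP099 cells at an equal matrix level, 20 of the 23 members lay below 0 and 3 above. Their median was −0.43, beside 0.02 over all genes, and the values of single members include this shift of the set. Col1a1 was at −1.21 ± 0.10 (limma adjusted p = 0.00785) and Thy1 at −1.88 ± 0.21 (adjusted p = 0.0299). These were the 2 members with an adjusted p of 0.05 or less, beside 0.48% of all genes. That count was 11 without M-Shp2-/- replicate 3, beside 22.8% of all genes in that fit, 8 without SHP099 replicate 1, beside 8.19%, and 2 without SHP099 replicate 3, beside 0.201%. It was 0 without M-Shp2-/- replicate 1, M-Shp2-/- replicate 2 or SHP099 replicate 2, beside 0.0437%, 0% and 0.0699% of all genes. With 1 library left out Col1a1 was at −1.26 to −1.12, with adjusted p of 0.00221 to 0.265, and Thy1 at −2.05 to −1.74, with adjusted p of 0.00190 to 0.482. Both had their highest adjusted p without M-Shp2-/- replicate 2. Against wild type, 0 members reached that level in M-Shp2-/- cells, beside 0.0786% of all genes, 1 (4.35%) had an unadjusted p under 0.05, beside 10% of all genes, and Col1a1 lay within 0.06 to 0.25 in the fits with 1 library left out. Of the 29 genes behind this level, 1 was lower and 1 was higher in SHP099 than in wild-type libraries with no overlap, beside 34.6% of all genes that did not overlap. The lower one was the proteoglycan gene Vcan, at 6.88 to 10.7 FPKM in SHP099 and at 18.8 to 35.7 in wild-type libraries (−1.58 ± 0.25 in the limma fit without the covariate, adjusted p = 0.0209). In that fit 4 of the 29 (13.8%) had an unadjusted p under 0.05, 2 higher and 2 lower, beside 26.7% of all genes. Thbs1, at −0.96 ± 0.33 (adjusted p = 0.118), was also lower, while 20 of the 29 were higher on average and 9 lower. Only 15 of the 29 correlated at 0.9 or more with the mean of the members. An equal matrix level is therefore not a measure of equal stromal cell content.

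Other matrix genes repeated the library pattern in part. Of 50 listed, 29 could be tested and 15 correlated at 0.9 or more with the mean of the members. Fn1, which encodes fibronectin and is also expressed by macrophages, was the most abundant, at 215 to 829 FPKM. Fbln2, a fibulin of fibroblasts, stood at 18.1, 52.0 and 7.24 FPKM in wild-type replicates 1 to 3, at 48.6, 16.5 and 103 in M-Shp2-/- replicates 1 to 3, and at 70.9, 30.4 and 16.7 in SHP099 replicates 1 to 3. Ccn1 and Ccn2, matricellular genes that respond to growth factors and cell shape, had the largest differences between M-Shp2-/- and wild type, at 1.73 ± 0.70 and 1.60 ± 0.45 (limma adjusted p = 0.467 and 0.454). Timp1, an inhibitor of matrix metalloproteinases, was at −1.38 ± 0.66 in SHP099 against wild type (adjusted p = 0.23). Other mesothelial genes, 15 listed and 3 tested, summed to 197, 513 and 136 FPKM in wild-type replicates 1 to 3, to 274, 138 and 654 in M-Shp2-/- replicates 1 to 3, and to 516, 347 and 461 in SHP099 replicates 1 to 3, most of it from the protease inhibitor gene Slpi. Their 3 high libraries were those of the members. Of 95 genes in the lists of other matrix, mesothelial, fibroblast and contractile genes 47 could be tested, and limma called 0 of them in each of the 3 comparisons, as did voom. Unadjusted p under 0.05 were reached by 3 (6.38%, beside 10.5% of all genes) in M-Shp2-/- against wild type, 6 (12.8%, beside 26.7%) in SHP099 against wild type and 4 (8.51%, beside 12.6%) in the comparison of M-Shp2-/- with SHP099.

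Some genes of the fibroblast and contractile lists took other courses than the members, and which cells expressed them was not tested. Vim, which encodes the intermediate filament vimentin, was at 1350.1, 1089.9 and 1486 FPKM in wild-type replicates 1 to 3, at 1163, 1268 and 772 in M-Shp2-/- replicates 1 to 3, and at 725, 702 and 772 in SHP099 replicates 1 to 3. It was lower in all SHP099 libraries than in all wild-type libraries (−0.82 ± 0.13, adjusted p = 0.0204, not called), and M-Shp2-/- replicate 3, which had the most collagen, stood next to the SHP099 libraries. Cnn2, a calponin, was at 57.2 to 108 FPKM in wild type, at 38.8 to 58.9 in M-Shp2-/- and at 17.4 to 29.5 in SHP099 (−1.82 ± 0.28, adjusted p = 0.0192). Cald1 and Tpm2, by contrast, followed the collagens, with r of 0.96 and 0.95 with the mean of the members.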

How the data were processed

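RNA was sequenced from adherent peritoneal cells in 9 libraries. Per the submitters' processing notes and the study's methods, the authors used CASAVA 1.8, aligned paired reads with HISAT2 2.0.4, counted them per gene with HTSeq 0.9.1 and deposited FPKM, 1 column per library. The genome build, annotation, strand counted and tool for FPKM are not given in the sources used here. Symbols, positions and lengths were taken from GENCODE M21 (GRCm38). FPKM multiplied by mean transcript length fell within 0.1 of a whole number of reads for 96.8% to 97.2% of values of up to 50 reads, which gave the depth.

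The 11450 genes (23 members) whose FPKM averaged 1 or more were compared as log2(FPKM + 1) with limma 3.58.1 (lmFit, eBayes with trend) in R 4.3.3, on the 6 libraries of each comparison, two-sided, with Benjamini-Hochberg adjustment over all genes. Fold changes are on that scale, which understates changes of low genes. The procedure was tested on simulated data. Tables and figures used Python 3.11.15, numpy 2.4.6, pandas 2.3.3, scipy 1.17.1 and matplotlib 3.10.9.

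All members are named, with Ptpn11. Of other lists, the 3 tested genes of highest FPKM, called genes and, for stromal lists, the 3 largest differences per comparison could be named, and the 10 genes most like the members. The 7 ratios, and list genes at 0 or untested, were chosen after their values were seen. The members and lists were chosen with earlier results of these data known. Alternatives were another pseudocount, filter, scaling and threshold, all libraries in one fit, a replicate block, voom on recovered reads and each library left out, and the matrix covariate was added after the data were seen.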

Additional observations from a re-analysis of the deposited data

How the results depend on the processing

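Members called stayed at 0 in all planned settings with every library kept. Genes called of all tested (1 for M-Shp2-/- and 19 for SHP099 against wild type, and 0 between M-Shp2-/- and SHP099, in this order throughout) moved to 0 and 0 against wild type without a filter, to 3 for M-Shp2-/- with median-of-ratios scaling, to 2 for M-Shp2-/- and 1 between M-Shp2-/- and SHP099 with all 9 libraries in one fit, to 9 for SHP099 with voom, and to 9, 197 and 7 when an adjusted p of 0.05 sufficed. With the replicate block they were 0, 0 and 0. The replicate numbers are not stated to pair libraries, same-numbered libraries deviated together at −0.43 to 0.49, and not every library correlated best with its own number. With the matrix level as a covariate, added after the data were seen, genes called were 0 for M-Shp2-/- against wild type, and members called 1 for SHP099 against wild type. Members above 0 (18, 21 and 12) became 11, 13 and 7 of 14 members tested at a minimum mean FPKM of 5, where fewer are tested, and 9 for M-Shp2-/- against wild type and 3 between M-Shp2-/- and SHP099 with the covariate. With 1 library left out, genes called ranged from 0 to 0, 0 to 26 and 0 to 159, members called from 0 to 1 between M-Shp2-/- and SHP099, and members above 0 from 10 to 21, 12 to 21 and 2 to 21. The sign of the log2 fold change turned for 12, 10 and 19 of the 23 members in at least 1 such fit. For SHP099 against wild type, genes called were 4 without wild-type replicate 1, 5 without wild-type replicate 2 and 0 without any 1 SHP099 replicate. The 159 came without M-Shp2-/- replicate 3. Mrc1, the macrophage gene called in SHP099 against wild type, lost its call without a filter, with all 9 libraries, with the block and without wild-type replicate 2 or any 1 SHP099 replicate. The causes were not tested. Depth limits Lum, Postn, Igfbp5, Krt18 and Krt19, each under the floor in at least 1 library, where 3 reads were taken as the floor.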

Other observations

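Mrc1, the mannose receptor of macrophages, was the 1 gene called among 12 macrophage genes tested, lower in SHP099 than in wild-type cells (−2.18 ± 0.14, limma adjusted p = 0.00289). Without wild-type replicate 2 or any 1 SHP099 replicate it was at −2.25 to −2.16 and lost its call. It read 61.5, 43.8 and 43.5 FPKM in wild-type replicates 1 to 3, 59.8, 71.2 and 19.4 in M-Shp2-/- replicates 1 to 3, and 10.3, 10.1 and 9.79 in SHP099 replicates 1 to 3, so that M-Shp2-/- replicate 3, the library with the highest collagen, lay between the others of its group and the SHP099 libraries. Itga5, a fibronectin receptor chain in the list of TGF-beta and matrix signalling, had the same order, with 202 to 217 FPKM in wild type, 213, 214 and 123 in M-Shp2-/- and 107 to 110 in SHP099 (−0.94 ± 0.07 in SHP099 against wild type, adjusted p = 0.00369, short of the fold required). After median-of-ratios scaling Itga5 was at −1.09 and was called. Of 23 genes in that list 20 could be tested, and with every library kept limma without that scaling and voom called 0 in each of the 3 comparisons. Unadjusted p under 0.05 were reached by 3 in M-Shp2-/- against wild type (15%, beside 10.5% of all genes), by 6 in SHP099 against wild type (30%, beside 26.7%) and by 5 between M-Shp2-/- and SHP099 (25%, beside 12.6%).

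Ighm, which encodes the heavy chain of IgM, was at 175 FPKM in M-Shp2-/- replicate 3 and at 5.97 to 44.8 in the other libraries. Of 7 neutrophil genes 2 could be tested, and they differed. S100a8, which made up most of the sum of that list, was highest in M-Shp2-/- replicate 3 and wild-type replicate 2, at 95.4 and 91.3 FPKM, whereas the collagenase gene Mmp8 was highest in M-Shp2-/- replicates 1 and 2, at 10.4 and 8.13, and at 6.13 in M-Shp2-/- replicate 3. Ly6c2, of the list of monocyte and dendritic cell genes, was highest in wild-type replicate 3, at 17.6. Kit, of the list of mast cell and eosinophil genes, in which Fcer1a was at 0 in every library, ranged from 0.176 to 4.51. It was at −1.11 ± 0.38 in SHP099 against wild type (limma adjusted p = 0.123). The sum of that list was 5.04 to 6.53 FPKM in wild-type libraries, 1.65 to 3.70 in M-Shp2-/- and 0.577 to 0.981 in SHP099, with no overlap between the groups. Of its 8 genes only Kit reached the minimum for testing, so the sum rests on low values. Of all genes tested, 19.1% did not overlap between M-Shp2-/- and wild type. The share was 34.6% between SHP099 and wild type and 17.7% between M-Shp2-/- and SHP099. Of 58 genes in these lists and in those of B cell, T and NK cell, endothelial, epithelial and proliferation genes 15 could be tested, and with every library kept limma and voom called 0 in each of the 3 comparisons. Unadjusted p under 0.05 were reached by 0 in M-Shp2-/- against wild type, by 6 in SHP099 against wild type (40%, beside 26.7% of all genes) and by 3 between M-Shp2-/- and SHP099 (20%, beside 12.6%). For macrophage genes these counts were 2, 3 and 3 of 12 (16.7%, 25% and 25%).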
